A study of Mus musculus with 4 samples.

Results

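The genes that copy DNA in S phase were compared between 2 mouse erythroid cell systems under differentiation. MEL is an erythroleukemia line, and ES-EP are progenitors of the red cell lineage that were made from mouse ES cells. The genes were chosen by name for their part in origin licensing, the replicative helicase, the polymerases, the sliding clamp and the supply of deoxynucleotides. A feature was used where the array annotation gave it to that gene alone. All 53 genes had such a feature, out of 19920 genes with 1, and 4 of the 53 (Pcna, Rpa3, Slbp and Tk1) had 2, for which the brighter stood for the gene.

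MEL cells had been grown in medium with serum, glutamine and puromycin and were treated with 17b-estradiol over 48 hours. ES-EP cells had been expanded in StemPro34 medium with erythropoietin (Epogen), hIGF-1, dexamethasone, murine SCF and mercaptoethanol. For 24 hours they were then given erythropoietin, insulin and mifepristone, which blocks the glucocorticoid receptor, with mercaptoethanol kept. Each group had 2 cultures, A and B, with 1 Affymetrix Mouse Gene 1.0 ST array per culture. The cells, the inducing agent, the medium and the hours all changed together between the groups and cannot be told apart. Cultures before induction were not analysed here, and no change over differentiation is given.

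DNA replication starts when the origin recognition complex, Cdc6 and Cdt1 load the MCM helicase onto DNA in G1. Kinases then recruit Cdc45 and the GINS complex, the helicase unwinds the DNA, and polymerases copy both strands behind it. Many genes for these proteins are known E2F targets that are transcribed as cells enter S phase, and erythroid precursors keep dividing through the first steps of their maturation.

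Values are log2 intensities made by the authors with RMA, so a difference of 1 is a 2-fold difference. A difference, always MEL minus ES-EP, was called where limma gave an adjusted p under 0.05 over all 28944 features tested. RMA compresses differences near its floor, but the 53 genes all lay above the median feature level of 5.91, with means over the 4 arrays of 7.78 to 12.24. The smallest two-sided p of an exact permutation test on these 4 arrays is 0.333, and the calls therefore rest on the variance that limma shares across features. Nothing in the labels says that the 2 cultures of a group were grown apart in time. The p-values, standard errors (SE) and intervals therefore measure only the spread between these cultures, as moderated by limma across features. They do not give the spread of 1 gene's own cultures.

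The 11 measured erythroid markers averaged between 4.35 and 12.42 in the MEL arrays and between 6.96 and 13.22 in the ES-EP arrays, with 9 lower and 2 higher in MEL. Gata1, a master erythroid transcription factor, averaged 11.94 in the MEL arrays and 11.49 in the ES-EP arrays. Slc4a1, the red cell anion exchanger, averaged 7.04 in the MEL arrays and 12.48 in the ES-EP arrays. The 7 myeloid markers spanned 3.55 to 6.37 in the MEL arrays and 3.82 to 7.23 in the ES-EP arrays, the 5 mast cell and basophil markers 3.56 to 5.42 and 3.87 to 7.45, the 4 lymphoid markers 3.66 to 5.80 and 3.92 to 6.06, and the 5 pluripotency markers 3.95 to 5.31 and 3.74 to 5.88. The 5 megakaryocyte markers spanned 4.47 to 9.12 in the MEL arrays and 3.80 to 7.01 in the ES-EP arrays, with 3 (Pf4, Itga2b and Ppbp) higher in MEL. Of the mast cell and basophil markers 3 were lower in MEL, among them Ms4a2, a chain of the IgE receptor, which averaged 3.93 in the MEL arrays and 7.45 in the ES-EP arrays. The myeloid, lymphoid and pluripotency lists also had 3 lower each, and the pluripotency list 2 higher. Of all genes 36.9% were lower and 21.8% higher. Cpa3 and Mcpt8, the other mast cell and basophil calls, and Ppbp averaged below the median feature level of 5.91 in both groups. So did all 5 pluripotency markers and, among the myeloid and lymphoid calls, Mpo, Csf1r, Cd4 and Cd8a. The part of these markers in the differences below was not tested.

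DNA replication genes were mostly at lower levels in the MEL arrays than in the ES-EP arrays, in each of the 8 groups of subunits described below. Of the 53 genes, 43 were lower, 1 (Rpa3) was higher and 9 were not called, against backgrounds of 36.9% of all genes lower and 21.8% higher. As shares, 81.1% of the 53 genes were lower and 1.89% higher. Their median difference was -0.74, while that of all genes was -0.14, so relative to all genes the median was -0.60. At least 2-fold, 11 were lower (20.8%, background 4.93%): Cdt1, Gmnn, Orc2, Orc6, Gins1, Prim1, Rfc3, Rfc4, Fen1, Rrm2 and Tk1. RNA was measured in bulk, so fewer cells in S phase and less RNA per cell cannot be told apart.

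The 53 genes are brighter than most, and the background was therefore also taken without the dimmer genes. Its cut, 5.91, lies below the lowest mean of the 53, 7.78, so brightness was not matched. Among the 10643 genes at or above the median feature level, which include all 53, 34.9% were lower and 33.3% higher, 7.43% were lower by at least 2-fold, and the median difference was -0.05. The calls of all genes shifted with the scaling of the arrays, to 28.6% lower and 26.7% higher when quantile normalization was applied. Centring on array medians gave 28.9% lower and 23.0% higher, and cyclic loess 24.5% lower and 29.0% higher. Under each of these 3 scalings 37 of the 53 genes were lower, with 2, 1 and 2 higher, and their median relative to all genes was -0.60, -0.60 and -0.64.

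**Figure D1:**
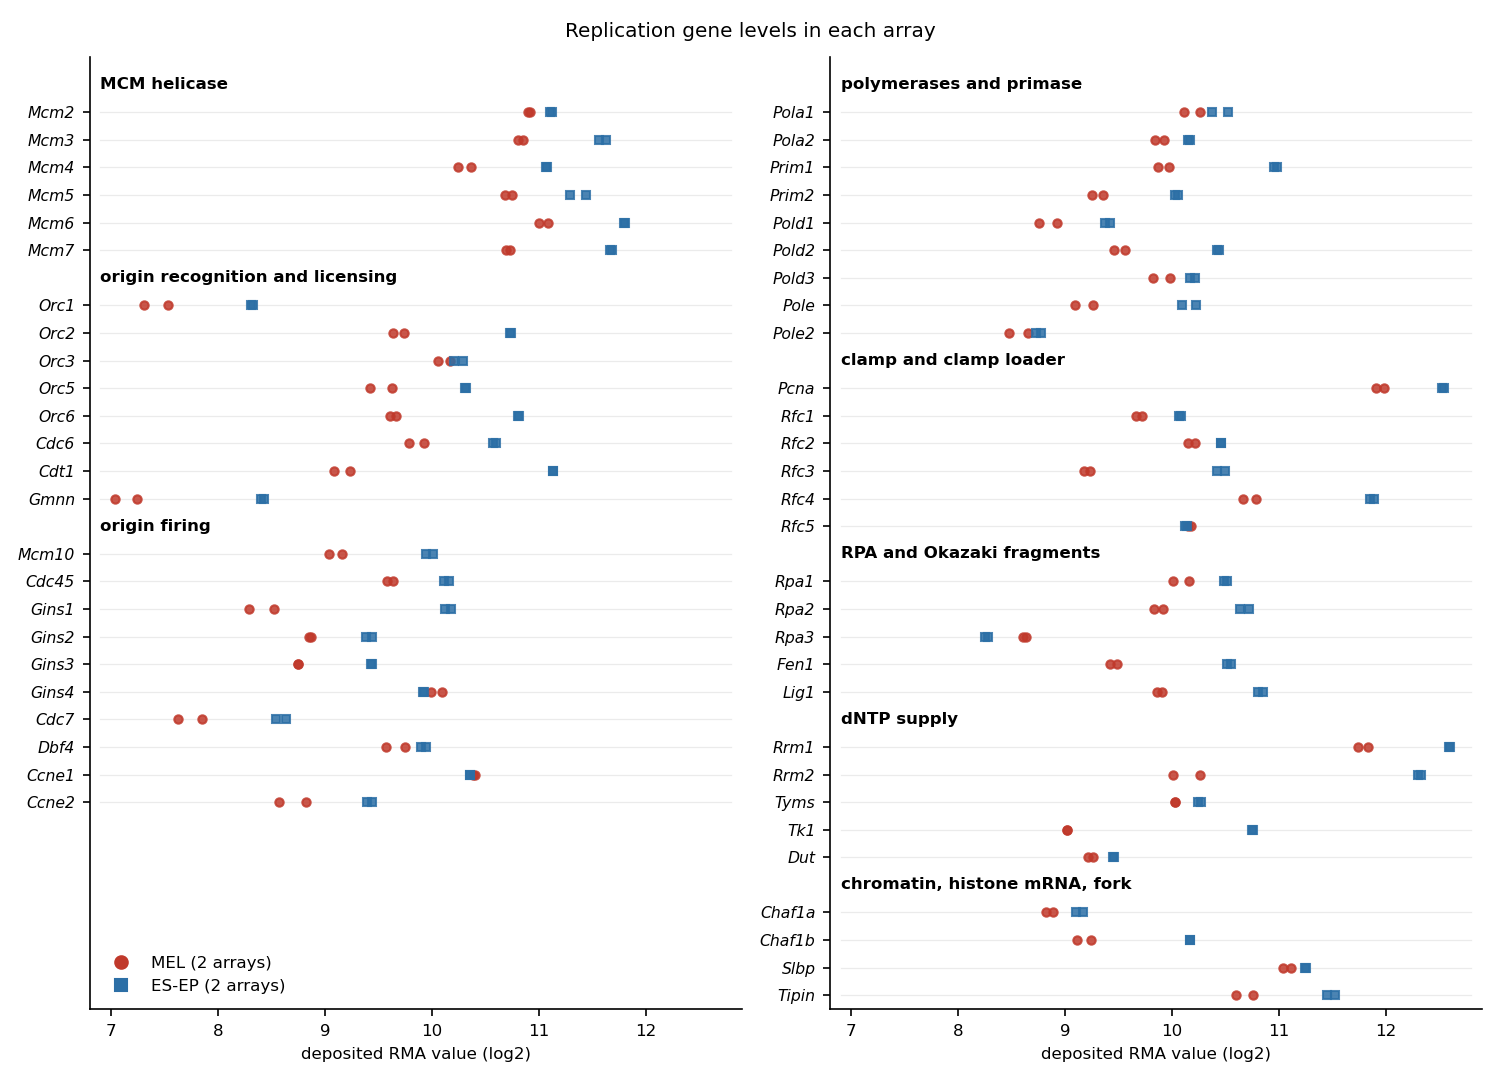
Deposited RMA value (log2, horizontal axis) of the 53 replication genes in each array, by subcomplex, with MEL as red circles and ES-EP as blue squares. The 2 MEL arrays lie below both ES-EP arrays in 49 genes and above both in 4.

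In 49 of the 53 genes both MEL arrays lay below both ES-EP arrays, and in the other 4 (Gins4, Ccne1, Rfc5 and Rpa3) both lay above, against 51.5% and 28.7% of all genes. The duplicates of MEL were offset from each other in these genes. MEL culture B was above MEL culture A in 46 of 53 genes (86.8%), by a median of 0.10 and at most by 0.25, while among genes at or above the median feature level it was above in 71.1%, by a median of 0.07. ES-EP culture B was above culture A in 31 of 53 (58.5%), by a median of 0.01. Without MEL culture A the median difference of the 53 genes was -0.68 (all genes -0.16), and without MEL culture B -0.80 (all genes -0.12).

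Many of these genes are known for E2F sites in their promoters, and promoter sequences from RefSeq (build GRCm38.p6) were found for 43 of the 53. Each window ran from 250 bases before to 50 bases after an annotated start. The letters TTTCCCGC, TTTCGCGC, TTTGCCGC and TTTGGCGC, the spellings of the E2F consensus, were searched on both strands, and matches may overlap where a spelling and the complement of another share letters. At least 1 match was found in 15 of the 43 genes (34.9%), against 704 of 27025 genes (2.60%). By window it was 15 of 50 (30.0%), against 744 of 32851 (2.26%). Each spelling holds the letters CG, and these backgrounds were matched neither for base composition nor for expression. Matches were in 4 of 5 MCM helicase genes, 4 of 7 genes of origin recognition and licensing and 4 of 7 of the polymerase genes. They were in 1 of 6 genes of origin firing, 1 of 5 of the clamp and its loader and 1 of 5 of single-strand binding and Okazaki fragments, and in none of the 5 genes of deoxynucleotide supply or the 3 of the last group. Of 33 replication genes outside the 53 with a window, 12 had a match (36.4%), and of 10 other deoxynucleotide genes none. Both lists taken as 1 gave 12 of 43 (27.9%). Of 23 mitosis genes with a window 1 had a match (4.35%). The 4 sequences below are the 250 bases before the start, shown because they carry paired, repeated or single matches (Mcm5, Mcm6 and Orc1) or, for the gene with the largest difference, no match (Rrm2). Capitals mark the matches. Mcm5 is at chr8:75109259-75109508, plus strand, Mcm6 at chr1:128359706-128359955, minus strand, Orc1 at chr4:108579204-108579453, plus strand and Rrm2 at chr12:24708004-24708253, plus strand.
Mcm5: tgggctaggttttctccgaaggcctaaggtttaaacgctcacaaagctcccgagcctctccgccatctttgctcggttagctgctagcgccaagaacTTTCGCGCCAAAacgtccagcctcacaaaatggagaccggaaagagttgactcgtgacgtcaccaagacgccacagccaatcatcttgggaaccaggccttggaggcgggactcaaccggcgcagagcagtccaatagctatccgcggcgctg
Mcm6: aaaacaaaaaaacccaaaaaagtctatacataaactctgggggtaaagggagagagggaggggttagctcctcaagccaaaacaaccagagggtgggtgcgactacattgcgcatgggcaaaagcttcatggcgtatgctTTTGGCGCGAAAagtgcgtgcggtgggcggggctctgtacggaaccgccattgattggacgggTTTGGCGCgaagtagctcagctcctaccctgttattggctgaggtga
Orc1: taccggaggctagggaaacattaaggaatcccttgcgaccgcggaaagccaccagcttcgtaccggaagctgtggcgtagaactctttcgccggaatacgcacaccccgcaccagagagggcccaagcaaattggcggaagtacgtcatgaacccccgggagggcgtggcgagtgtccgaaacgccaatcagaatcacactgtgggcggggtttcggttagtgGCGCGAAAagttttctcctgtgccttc
Rrm2: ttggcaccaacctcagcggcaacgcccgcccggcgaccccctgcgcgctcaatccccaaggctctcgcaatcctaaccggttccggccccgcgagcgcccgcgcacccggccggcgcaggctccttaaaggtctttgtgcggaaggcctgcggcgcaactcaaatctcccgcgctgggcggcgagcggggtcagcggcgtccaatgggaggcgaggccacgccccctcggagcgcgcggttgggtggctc

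Counted from the annotated start as 0, the overlapping pair in Mcm5 begins at -153 and -149, and that in Mcm6 at -110 and -106, with a further match at -47. The match in Orc1 begins at -27. These matches are letters only, and nothing was measured at these promoters. The 15 genes with a match had a median difference of -0.74 (12 lower, 3 not called), and the 28 with a window and no match -0.69 (22 lower, 1 higher, 5 not called).

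**Figure D2:**
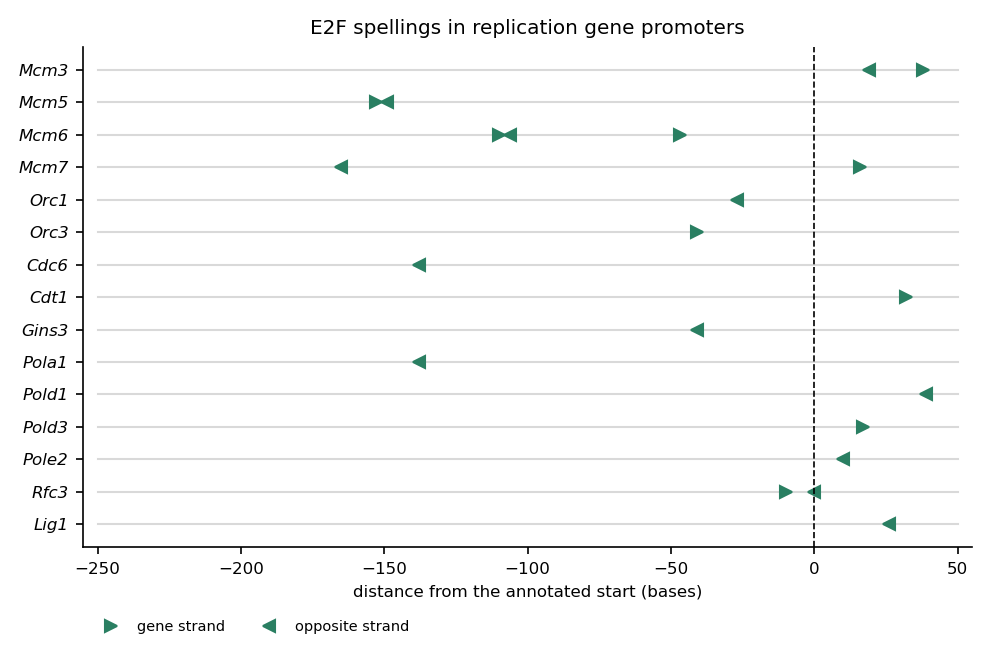
Position of E2F spellings (triangles, pointing right on the gene's strand and left on the opposite strand) in the 15 replication gene promoters with a match, as the distance in bases of the match's first base from the annotated start (dashed line). Matches lie from -165 (Mcm7) to 39 (Pold1).

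The MCM proteins form the ring that opens the DNA, and 5 of the 6 MCM helicase genes were lower in MEL. Mcm7 (feature 10534974) had values of 10.73 and 10.70 in the MEL arrays and 11.66 and 11.68 in the ES-EP arrays. Its difference was the largest of the ring, at -0.96 ± 0.08 (SE, n = 2 per group, limma adjusted p = 6.06e-05), or 1.94-fold lower. Mcm3, Mcm4, Mcm5 and Mcm6 differed by -0.65 to -0.77. Mcm2 stood apart, at 10.90 and 10.92 in MEL and 11.11 and 11.12 in ES-EP cells, a difference of -0.20 that was not called (95% interval -0.39 to -0.01, adjusted p = 0.0647). The intervals of the other 5, whose upper ends lay at -0.43 or below, also ended below the -0.39 at which that of Mcm2 began. Mcm2 was called lower with an intensity trend in the prior (adjusted p = 0.00372) and with dim features left out (adjusted p = 0.0359).

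Among the 8 genes of origin recognition and licensing 7 were lower, with a median difference of -0.97. Cdt1 (feature 10576140), which brings the MCM ring to the origin, was at 9.08 and 9.24 in MEL and at 11.14 in both ES-EP arrays, a difference of -1.98 ± 0.09 (SE, n = 2 per group, limma adjusted p = 2.89e-06), or 3.94-fold lower. Gmnn encodes geminin, the inhibitor that binds Cdt1 outside G1. It was lower too, at 7.04 and 7.24 in MEL and 8.40 and 8.43 in ES-EP cells (-1.28 ± 0.10, 2.42-fold). So the loader and its inhibitor were lower together. Cdc6, the other loading factor, differed by -0.74.

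The subunits of the origin recognition complex itself had differences of unlike size, and differences between subunits were not tested. Orc6 was 2.26-fold and Orc2 2.07-fold lower in MEL, Orc1 1.87-fold and Orc5 1.74-fold. Orc3 had values of 10.05 and 10.17 in MEL and 10.21 and 10.29 in ES-EP cells, which gave -0.14 (interval -0.345 to 0.07, adjusted p = 0.218) and 0.010 after quantile normalization. The interval of Orc3 lay above those of the other 4 subunits among the 53 genes, which lay between -1.37 and -0.57. Orc4, a subunit outside the 53 that was named after its values were seen, was not called either (-0.10, interval -0.37 to 0.17, adjusted p = 0.491).

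Of the 10 genes that turn a loaded helicase into a running fork 8 were lower. The GINS complex, which with Cdc45 completes the helicase, held both the lowest and the highest difference of this group. Gins1 (feature 10476989) was at 8.29 and 8.52 in MEL and 10.12 and 10.18 in ES-EP cells, 3.36-fold lower (-1.75 ± 0.10, SE, n = 2 per group, limma adjusted p = 1.04e-05). Gins2 and Gins3 differed by -0.55 and -0.69. Gins4 went the other way, with values of 9.99 and 10.09 in MEL and 9.92 in both ES-EP arrays, or 0.12 (interval -0.08 to 0.32, adjusted p = 0.251), which was not called. Gins4 was called higher after quantile normalization (0.27, adjusted p = 0.016) and after cyclic loess (0.23, adjusted p = 0.031). The estimates of the 4 subunits of 1 complex lay on both sides of 0, though the interval of Gins4 held 0. Differences between subunits were not tested, here or in the other complexes.

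The kinases and factors of origin firing were mostly lower. Mcm10, which helps to activate the helicase, differed by -0.88 and Cdc45 by -0.53. Cdc7, the kinase that phosphorylates the MCM ring, had values of 7.63 and 7.85 in MEL and 8.55 and 8.63 in ES-EP cells, a difference of -0.85. Its activating subunit Dbf4 differed by -0.26 (adjusted p = 0.0486), and this call was lost under all 3 other scalings, with control features included (adjusted p = 0.0857) and without MEL culture A or either ES-EP culture. The E cyclins, which activate Cdk2 at the start of S phase, split. Ccne2 was at 8.57 and 8.83 in MEL and 9.44 and 9.39 in ES-EP cells (-0.71 ± 0.10, 1.64-fold lower). Ccne1 was at 10.38 and 10.40 in MEL and 10.36 and 10.35 in ES-EP cells, or 0.04 with bounds of -0.15 and 0.23, while the bounds of Ccne2 were -0.96 and -0.47.

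**Figure D3:**
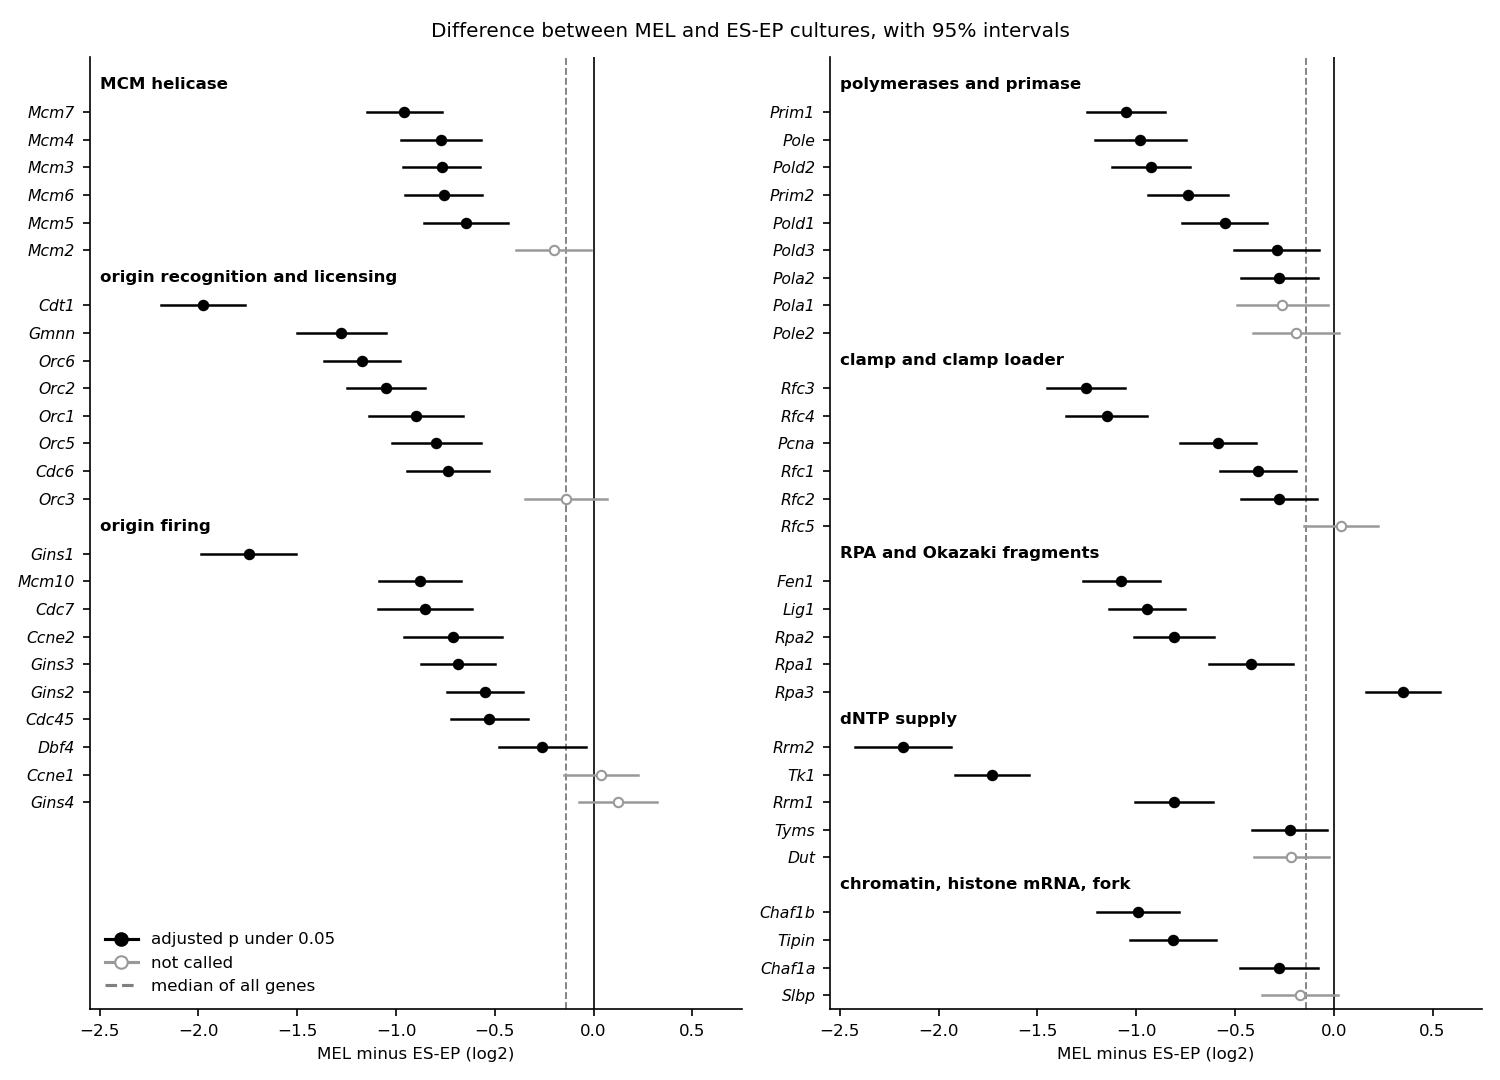
Difference MEL minus ES-EP (log2, horizontal axis) of the 53 replication genes by subcomplex, with 95% intervals from limma, filled where the adjusted p was under 0.05 and open where not called. The dashed line marks the median of all genes, -0.14, and the genes spread from -2.18 (Rrm2) to 0.35 (Rpa3).

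Among the 9 polymerase and primase genes 7 were lower, and the size varied within each enzyme. Prim1, the catalytic primase subunit that lays down RNA primers, had values of 9.87 and 9.97 in MEL and 10.95 and 10.98 in ES-EP cells, a difference of -1.05 ± 0.08 (SE, n = 2 per group, limma adjusted p = 4.99e-05), or 2.07-fold lower. Its partner Prim2 differed by -0.74. The polymerase alpha subunits in the same complex differed less, Pola2 by -0.28 (adjusted p = 0.0255) and Pola1 by -0.26 without a call (adjusted p = 0.0548).

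The leading and lagging strand polymerases showed the same unevenness. Pole, the catalytic subunit of the leading strand polymerase, was at 9.10 and 9.26 in MEL and 10.09 and 10.22 in ES-EP cells (-0.98 ± 0.10, 1.97-fold lower). Its second subunit Pole2 was at 8.48 and 8.65 in MEL and 8.73 and 8.78 in ES-EP cells, or -0.19 (interval -0.41 to 0.03), which was not called. Of polymerase delta, which makes the lagging strand, the accessory subunit Pold2 differed by -0.92, the catalytic subunit Pold1 by -0.55 and Pold3 by -0.29. The calls of Pola2 and Pold3 were lost under all 3 other scalings and without MEL culture A or either ES-EP culture, and that of Pold3 also with control features included (adjusted p = 0.0598).

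The sliding clamp and 4 of the 5 subunits of its loader were lower in MEL. Pcna, the ring that holds polymerases on DNA, had values of 11.91 and 11.99 in MEL and 12.55 and 12.52 in ES-EP cells, a difference of -0.59. In the loader, Rfc3 (feature 10535979) was at 9.18 and 9.23 in MEL and 10.42 and 10.50 in ES-EP cells, 2.39-fold lower (-1.26 ± 0.08, SE, n = 2 per group, limma adjusted p = 1.93e-05), and Rfc4 was 2.22-fold lower. The large subunit Rfc1 differed by -0.38 and Rfc2 by -0.28, a call that was lost under all 3 other scalings and without MEL culture B or either ES-EP culture. Rfc5 was at 10.18 and 10.15 in MEL and 10.14 and 10.12 in ES-EP cells, or 0.04 (interval -0.15 to 0.22). Rfc3 and Rfc4 therefore had intervals (-1.45 to -1.06 and -1.35 to -0.94) that lay apart from those of the other 3 subunits.

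The single-strand binding protein RPA held the 1 gene that was higher in MEL. Rpa2 differed by -0.81 and the large subunit Rpa1 by -0.42. Rpa3, the smallest subunit, was at 8.60 and 8.63 in MEL and 8.25 and 8.28 in ES-EP cells, a difference of 0.35 ± 0.08 (SE, n = 2 per group, limma adjusted p = 0.00826), or 1.27-fold higher. Its dimmer feature, which may not read the gene's own locus, was higher as well, by 0.23 (limma adjusted p = 0.047). The call of Rpa3 was lost without ES-EP culture A (0.33, adjusted p = 0.0682). The enzymes that finish Okazaki fragments were both lower. Fen1, which cuts the flaps, was at 9.42 and 9.49 in MEL and 10.55 and 10.51 in ES-EP cells (-1.08 ± 0.08, 2.11-fold lower), and Lig1, which seals the nicks, differed by -0.95.

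The largest difference of the 53 genes lay in the supply of deoxynucleotides, where 4 of 5 genes were lower. Rrm2 (feature 10394978), the cell cycle-regulated subunit of ribonucleotide reductase, was at 10.01 and 10.26 in MEL and 12.30 and 12.33 in ES-EP cells, a difference of -2.18 ± 0.10 (SE, n = 2 per group, limma adjusted p = 3.66e-06). Both MEL arrays thus lay more than 2 log2 units below either ES-EP array. Rrm1, the partner subunit of the same enzyme, was at 11.74 and 11.84 in MEL and 12.60 and 12.59 in ES-EP cells, a difference of -0.81. Tk1 (feature 10582809), the S phase thymidine kinase, was at 9.02 in both MEL arrays, with no difference between them to 4 decimals, and at 10.75 in both ES-EP arrays, 3.32-fold lower (-1.73 ± 0.08, adjusted p = 3.18e-06).

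The other genes of thymidylate supply differed less. Tyms, thymidylate synthase, was at 10.03 in both MEL arrays and 10.24 and 10.27 in the ES-EP arrays, a difference of -0.22 (adjusted p = 0.0467) whose call was lost under all 3 other scalings, with control features included (adjusted p = 0.068) and with any 1 of the 4 cultures left out. Dut, which keeps uracil out of DNA, differed by -0.21 (interval -0.41 to -0.02) and was not called (adjusted p = 0.0559). The interval of Tk1, -1.92 to -1.54, lay far below that of Tyms, -0.41 to -0.04.

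Of the 4 remaining genes, which act behind and at the fork, 3 were lower. Chaf1b was at 9.11 and 9.24 in MEL and 10.17 and 10.16 in ES-EP cells (-0.99 ± 0.09, SE, n = 2 per group, limma adjusted p = 7.91e-05), while Chaf1a, the large subunit of the same chromatin assembly factor, differed by -0.28, a call that was lost under all 3 other scalings and without MEL culture B or either ES-EP culture. Tipin, a fork protection protein, was at 10.59 and 10.76 in MEL and 11.53 and 11.45 in ES-EP cells, a difference of -0.81. Slbp, which binds the stem-loop of histone mRNAs, was not called, at 11.11 and 11.04 in MEL and 11.24 and 11.25 in ES-EP cells.

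In the 4 genes with 2 features both pointed the same way, but the brighter one may not be the gene's own locus in 3 of them. For Pcna, Slbp and Tk1, 19, 10 and 15 of the 20 features numbered closest to the brighter one carry genes of 1 other chromosome, by the RefSeq table of GRCm38.p6, while the dimmer one sits among neighbours of the gene. Whether the brighter features read a related copy was not tested. The dimmer features gave differences of -0.59 for Pcna, -0.13 for Slbp and -1.97 for Tk1, against -0.59, -0.17 and -1.73 on the brighter ones. For Rpa3, a gene of chromosome 6, the brighter feature is the one among its neighbours. Of the 20 features numbered closest to its dimmer one, 18 carry genes of chromosome 1.

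Most replication and deoxynucleotide genes outside the 53 were lower too, while mitosis genes, like all genes, lay on both sides of 0. Of 53 others listed, 52 were measured. Of these 52, 39 were lower, 3 higher and 10 not called, against backgrounds of 36.9% of all genes lower and 21.8% higher. Their median was -0.55, or -0.41 relative to all genes. The largest falls were in Nasp, a histone chaperone (2.79-fold lower), and in Rnaseh2b and Rnaseh2a, subunits of the enzyme that removes ribonucleotides from DNA (2.43-fold and 2.39-fold lower). The 3 higher genes were Dctd, a deoxycytidylate deaminase that feeds thymidylate synthesis (0.87, 1.83-fold), Pole4, a small polymerase epsilon subunit (0.47), and Mcm8 (0.43), a relative of the MCM ring with a part in recombination. Of 26 measured mitosis genes (27 listed) 7 were lower, 7 higher and 12 not called, against the same backgrounds. Their median was 0.04, or 0.18 relative to all genes. With quantile normalization 4 were lower and 13 higher, against 28.6% and 26.7% of all genes. Centring gave 3 lower and 8 higher (all genes 28.9% and 23.0%), and cyclic loess 5 and 12 (all genes 24.5% and 29.0%). An intensity trend in the prior gave 7 lower and 12 higher (all genes 37.8% and 22.4%).

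Individual mitosis genes lay on both sides. Cenpa, the centromeric histone, had values of 11.13 and 11.18 in the MEL arrays and 10.24 and 10.25 in the ES-EP arrays, 0.91 higher in MEL, and the cytokinesis genes Racgap1 and Anln differed by 0.90 and 0.70. Pttg1, which encodes securin, was 2.53-fold lower and Birc5, of the chromosomal passenger complex, 2.08-fold lower, while the kinetochore motor gene Cenpe differed by -0.40. The lists overlap in their range of differences, and the distance between their medians was not tested.

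**Figure D4:**
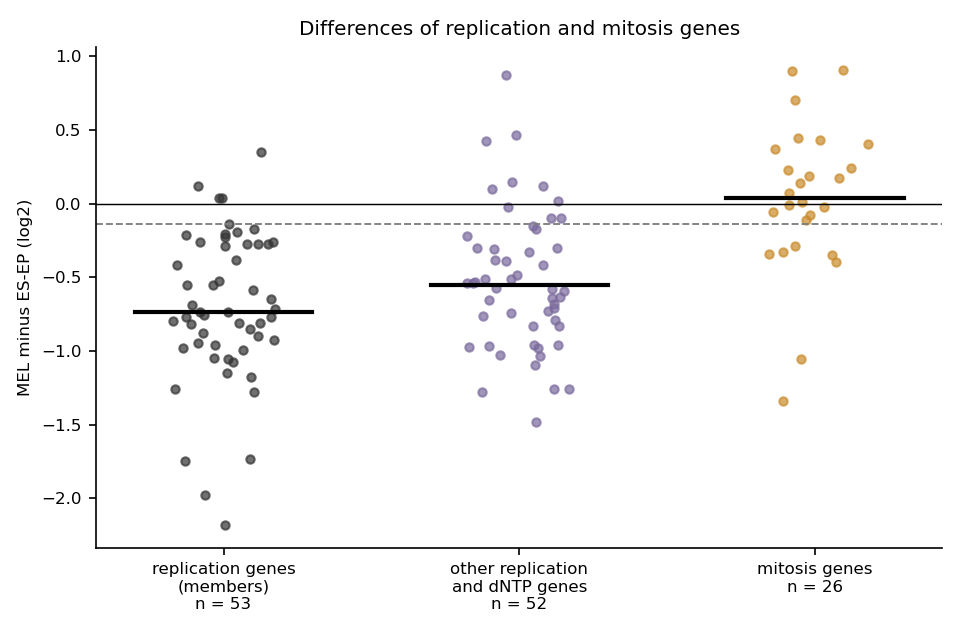
Difference MEL minus ES-EP (log2, vertical axis) of each of the 53 replication genes, 52 other replication and deoxynucleotide genes and 26 mitosis genes, with 1 point per gene and a bar at the median. The dashed line is the median of all genes, -0.14, and the medians of the 3 lists are -0.74, -0.55 and 0.04.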

How the data were processed

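The authors deposited log2 values made by RMA (background correction, quantile normalization and summary per feature) with GeneSpring GX, as the labels state. That they are log2 follows from their range. The sources used here do not name the software version, any filter or the set of arrays normalized jointly, and RMA values show no change in total RNA per cell. Of 35557 features, 6613 control features absent from the annotation were left out and 28944 tested. A total of 21789 had 1 gene symbol, 1621 several and 5534 none, and symbols were updated through Entrez identifiers with the RefSeq table of GRCm38.p6.

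MEL and ES-EP arrays were fitted in limma 3.58.1 under R 4.3.3 (lmFit, eBayes, Benjamini-Hochberg over all tested features), with 2 residual and 5.15 prior degrees of freedom, and the procedure was tested on simulated data. Intervals are 95% intervals of the moderated fit, and 2 arrays per group limit the precision. The brightest feature stood for a gene. The duplicates correlated with r = 0.997 in MEL and 0.998 in ES-EP cells across features, which are not independent.

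The 53 genes, the other lists and the tests were chosen with earlier results of these data known. Any of the 53 genes could be named, and each subcomplex has its largest called difference given by array. Of the other replication and deoxynucleotide genes and of the mitosis genes, the 3 largest called differences in each direction are named. Orc4 and the markers named were chosen after their values were seen. Cell type markers were listed for erythroid, myeloid, megakaryocyte, mast cell and basophil, lymphoid and pluripotent cells. Alternatives were 3 other scalings, 2 other priors, dim features left out, features of 1 gene only, control features included, the mean of a gene's features, the replicate letter as a block, and each culture left out.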

Additional observations from a re-analysis of the deposited data

How the results depend on the processing

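Of the 53 genes, 37 were called lower as reported and under all 14 alternatives, and 3 (Ccne1, Orc3 and Rfc5) were uncalled throughout. Dbf4, Pola2, Pold3, Rfc2, Tyms and Chaf1a were the 6 calls lost under each of the 3 other scalings. The median difference was -0.62 with quantile normalization, -0.67 with centring and -0.63 with cyclic loess. Quantile normalization and cyclic loess each called 2 genes higher, with Gins4 added, and each called 5 of the other replication and deoxynucleotide genes higher. Mitosis genes higher became 13 and 12 under those 2 scalings, and those lower 4 after quantile normalization and 3 after centring. Without rescaling, an intensity trend in the prior also gave 12 higher, with 7 lower. The difference of Orc3 changed sign to 0.010 after quantile normalization, without a call (adjusted p = 0.911). The 16350 features called became 10011 when dim features were left out, with 14472 tested. Pola1, Dut, Mcm2, Slbp and Pole2, uncalled as reported, were called lower under at least 1 alternative each.

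Leaving out 1 culture at a time, with the lone culture assumed to vary like the other group, gave 37 to 42 genes lower, 0 to 1 higher, and a median of -0.80 to -0.68. Without ES-EP culture A, limma called no gene higher, with 1 at an unadjusted p under 0.05. Mitosis genes lower ran from 3 to 7. The letters A and B do not pair cultures by any label, and same-lettered deviations correlated with r = 0.11 across features. With the letter as a replicate block 42 genes were lower and 1 higher. That block ended the calls of Dbf4 (adjusted p = 0.0544) and Tyms (adjusted p = 0.0552) and called Pola1 lower (adjusted p = 0.0333).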
